A study of Mus musculus with 6 samples.

Results

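Hnf4a, Pax2, Pax8, Sox4, Sox9, Lhx1, Emx2 and Pou3f3 are 8 transcription factor genes of the nephron, the filtering tubule of the kidney, and their transcript levels were compared between control and TfR1KO;KspCre kidneys. They were taken by gene symbol from a list of names, which was drawn up with earlier results of these data known. All 8 were present among the 24422 genes counted, and all 8 passed the filter on low counts that left 15171 genes to test. RNA was sequenced from whole kidneys of C57BL/6 mice at postnatal day 60 on a diet with 220 ppm iron, in 3 control and 3 TfR1KO;KspCre libraries that the series describes as biological replicates. The controls were wild type. The TfR1KO;KspCre mice carried Tfr1f/f, transferrin receptor alleles with recombination sites around part of the gene, together with KspCre, a Cre recombinase driven by the Ksp-cadherin promoter, which is active in the distal nephron and collecting duct and not in the proximal tubule. The libraries of these mice are called knockouts 1 to 3. An effect of the Cre and an effect of the deletion cannot be told apart, because the labels describe no control with the Cre alone.

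These factors act at different places and times. Pax2 and Pax8 are paired box factors needed to form the nephron, Lhx1 and Emx2 are homeodomain factors of the early nephron and the ureteric bud, Pou3f3 is a POU factor of the developing loop of Henle and distal tubule, and Hnf4a is a nuclear receptor that drives genes of the mature proximal tubule. Sox9 and Sox4 are SOX factors of the developing kidney, and Sox9 is low in resting adult tubules and known to appear in tubule cells that repair an injury.

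Total counts ran from 18036845 to 21001341 in the controls and from 11501053 to 19576330 in the knockouts, with knockout 3 the smallest. On the first principal component, which held 69.4% of the variance, knockout 1 (9.67) lay between the controls (-72.6 to -53.2) and knockouts 2 and 3 (88.6 and 82.1). Control 2 differed from the rest in sex-linked transcripts, with a centred log2 ratio of Xist over 4 Y-linked genes of -15.0 against 1.99 to 3.51 elsewhere, and the labels give no sex. Tfrc, the gene targeted, lay at 138, 168 and 62.0 CPM (read counts scaled to 1000000 per library after TMM normalisation) in controls 1 to 3 and at 214, 86.0 and 40.6 CPM in knockouts 1 to 3. Its groups overlapped (log2 fold change -0.11, SE 0.62, edgeR adjusted p = 0.911), so the gene-level count gave no check of the labels. Cdh16, which encodes Ksp-cadherin, averaged 1421 ± 105 CPM over the controls and 1191 ± 336 CPM over the knockouts (SD, n = 3).

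Promoter sequences are shown for the 2 called members that have one in the RefSeq table, since a reader may want to see what lies before a gene whose transcript differed. The table gave windows for 7 of the 8 members, and Sox9 had no entry. Each window was found once in the mm9 genome, and only its part outside annotated exons is printed, 5′ to 3′ on the strand of the gene. Hnf4a is known for an upstream and a downstream promoter, and its RefSeq windows end before start sites 40298 bases apart on chromosome 2. The upstream stretch is chr2:163332343-163332543 and the downstream one chr2:163372679-163372890, both on the plus strand, and the Sox4 stretch is chr13:29045583-29045818 on the minus strand. All are in lower case, since none of the motifs searched lay in these stretches.
Hnf4a upstream: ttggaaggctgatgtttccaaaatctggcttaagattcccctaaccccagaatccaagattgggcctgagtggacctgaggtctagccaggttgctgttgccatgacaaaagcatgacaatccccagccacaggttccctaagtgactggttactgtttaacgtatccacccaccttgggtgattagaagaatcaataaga
Hnf4a downstream: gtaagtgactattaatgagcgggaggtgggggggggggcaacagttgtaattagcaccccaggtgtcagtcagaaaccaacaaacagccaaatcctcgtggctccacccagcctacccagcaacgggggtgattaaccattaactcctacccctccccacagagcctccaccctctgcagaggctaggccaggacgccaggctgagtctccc
Sox4: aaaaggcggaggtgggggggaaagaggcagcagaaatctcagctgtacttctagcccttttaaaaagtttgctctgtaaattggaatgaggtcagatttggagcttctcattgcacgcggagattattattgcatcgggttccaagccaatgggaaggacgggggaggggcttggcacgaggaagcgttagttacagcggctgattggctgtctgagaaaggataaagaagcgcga

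The Hnf4a and Sox4 windows held no match to the HNF4 site CAAAGTCCA (found in 0.384% of all 32851 RefSeq windows of the same length), the AP-1 site TGANTCA (6.75%), the SOX sites ACAAAG or ACAATG (25.2%) or TATAAA (12.4%), each searched on both strands. The GC box GGGCGG, present in 32.7% of windows, lay in the part of the upstream Hnf4a window that annotated exons cover. ACAAAG was found once in each of 2 Pax2 windows. These matches describe letters only. The counts are per gene and do not tell which Hnf4a start site was used.

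Of the 8 members, Sox4 and Sox9 rose, Hnf4a fell, and 5 did not pass the test, at an adjusted p under 0.05 in edgeR's quasi-likelihood test over all genes. Of all genes tested, 17.2% passed, 10.6% as higher and 6.64% as lower in the knockouts. All 3 knockouts lay above all 3 controls for 2 members (Sox4 and Sox9), against 23.8% of genes tested, and below them for 3 members (Hnf4a, Lhx1 and Pou3f3), against 22.2%. The median log2 fold change was 0.02 over the members and 0.02 over all genes tested. The members' median was 0.23 without knockout 2, -0.26 without knockout 3 and 0.29 with library size alone as the scaling, under which the median of all genes was 0.29. With all 6 libraries the smallest adjusted p of any gene was 0.0271, and 5862 genes and 4 members had an unadjusted p under 0.05. The calls depended on which libraries were kept. Without knockout 1, 5 members passed (Hnf4a, Sox4, Sox9, Lhx1 and Pou3f3), as did 34.4% of all genes tested. Without any one of the other 5 libraries, 0 members passed in edgeR, with 3 or 4 members at an unadjusted p under 0.05, and between 0 and 73 genes of the whole table passed, with 4270 to 4823 at an unadjusted p under 0.05. Those 0 to 73 genes were 0 without control 1, control 2 or control 3, 2 without knockout 3 and 73 without knockout 2. Since no gene of the table passed without any one control, the calls in each gene list described here were lost in those fits too. On all 6 libraries, DESeq2 with its Wald test called 4 members (Lhx1 in addition) and 28.5% of genes.

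**Figure D1:**
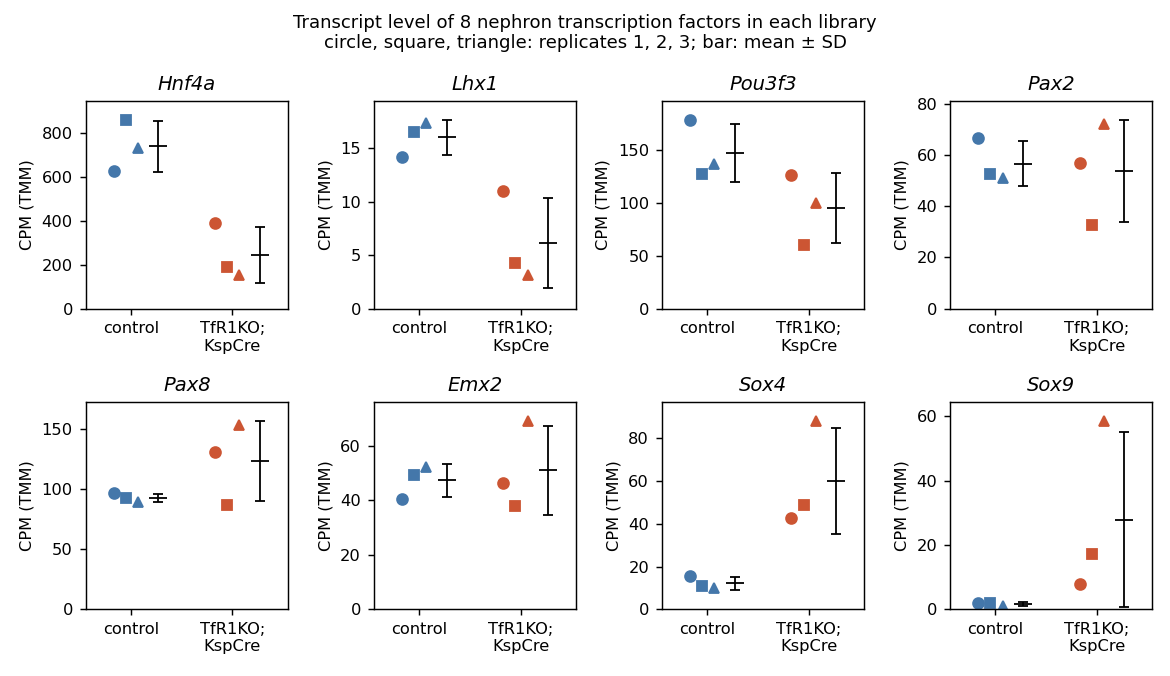
Transcript level of each of the 8 factors in CPM (TMM-normalised, vertical axis from 0) in 3 control libraries (blue) and 3 TfR1KO;KspCre libraries (orange), with circle, square and triangle for replicates 1, 2 and 3 and a bar for the mean ± SD. Hnf4a, Lhx1 and Pou3f3 have all knockouts below all controls, Sox4 and Sox9 have all knockouts above, and Pax2, Pax8 and Emx2 overlap.

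Hnf4a (ENSMUSG00000017950, mm9 chr2:163332544-163398646, plus strand) was the most abundant member per length and the only one called lower. It had 12645, 14678 and 12208 counts in controls 1 to 3, and 7998, 3795 and 2018 counts in knockouts 1 to 3. In CPM these were 629, 863 and 733 in the controls against 393, 190.4 and 155 in the knockouts. Every knockout lay below every control, with knockout 1 the nearest to them at 52.9% of the control mean and knockouts 2 and 3 at 25.7% and 20.8% of it. The log2 fold change was -1.59 (SE 0.38, 95% interval -2.49 to -0.69, edgeR adjusted p = 0.0380), a level 3.02-fold lower. Without knockout 1 it was -2.11 (adjusted p = 0.00264), and without each of the other 5 libraries it ran from -1.72 to -1.35 with adjusted p of 0.0829 to 0.124. In RNA from whole kidney, fewer cells of a type and less RNA per cell cannot be told apart.

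Markers of the proximal tubule, the segment where Hnf4a is mainly expressed, moved with it. Of the 16 markers, 9 fell and none was called higher, where 6.64% of all genes tested were called lower. The median log2 fold change of the markers was -1.89. Their summed level ran from 24179.7 to 54369 CPM in controls and from 3840.3 to 11606 CPM in knockouts. Kap alone held 31293 CPM of the sum in control 2, against 6180.0 and 11964 CPM in controls 1 and 3, and without it the sum ran from 17999.7 to 23669 CPM in controls and from 3365 to 10067 CPM in knockouts. Within each library, the log2 level of Hnf4a relative to the mean of the 16 markers measured -0.62, -0.65 and -0.80 for controls 1 to 3, against -0.45, -0.22 and -0.28 for knockouts 1 to 3. Hnf4a was higher relative to these markers in every knockout than in any control, by 0.38 on the log2 scale (exact two-sided permutation test, p = 0.10, the smallest that 3 against 3 allows, and 0.133 adjusted over 4 ratios). Set against Lrp2 alone, which encodes the endocytic receptor megalin, the difference was 0.94. Without Kap in the list it was 0.19, with control 2 at -0.35 and knockout 1 at -0.35 next to each other, so the size of this difference depends on the markers chosen. The part of the lower marker level in the Hnf4a call was not tested.

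The 6 other proximal transcription factors examined went the same way as Hnf4a in sign, and 5 of them fell, where 6.64% of all genes tested were called lower. Ppara, a nuclear receptor of fatty acid oxidation, lay at 151, 133 and 205 CPM in controls and at 71.6, 53.2 and 29.3 CPM in knockouts (log2 fold change -1.66, SE 0.34, edgeR adjusted p = 0.0317). Nr1h4, the bile acid receptor FXR, changed by -1.59 on the log2 scale (SE 0.29, edgeR adjusted p = 0.0297). Neither overlapped between the groups. Hnf4g, the paralog of Hnf4a, changed by -1.06 (SE 0.25, edgeR adjusted p = 0.0371) and Maf by -0.94, while Cebpa was not called at -0.07. The median over the list was -1.22, against 0.02 over all genes tested, and without any one library other than knockout 1 none of the 6 passed.

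Sox9 (ENSMUSG00000000567, mm9 chr11:112643538-112649074, plus strand) had the largest log2 fold change of the 8 members and the lowest control level. It had 37, 36 and 18 counts in the controls, so its control level rests on few reads. The knockouts had 161, 342 and 766 counts. In CPM it lay at 1.84, 2.12 and 1.08 for controls 1 to 3, against 7.90, 17.2 and 58.7 for knockouts 1 to 3. The knockouts were all above the controls but far apart from each other, at 4.71-fold, 10.2-fold and 34.9-fold the control mean. The log2 fold change was 4.04 (SE 0.79, 95% interval 2.17 to 5.91, edgeR adjusted p = 0.0305), a 16.5-fold higher level with an interval from 4.50-fold to 60.3-fold. Leaving out knockout 3 brought it to 2.89 (adjusted p = 0.0564), and limma-voom, with 3.44, did not call it (adjusted p = 0.0716).

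Sox4 (ENSMUSG00000076431, mm9 chr13:29040788-29045582, minus strand) lay at 15.7, 11.2 and 9.91 CPM in controls 1 to 3 and at 42.9, 49.0 and 88.3 CPM in knockouts 1 to 3, from 315, 190 and 165 counts against 875, 977 and 1153. The knockouts lay above the controls with less spread than for Sox9, between 3.51-fold and 7.21-fold the control mean. Its log2 fold change was 2.29 (SE 0.33, 95% interval 1.51 to 3.07, edgeR adjusted p = 0.0271), a 4.89-fold higher level. An antisense lincRNA, Gm17419, overlaps its exons in the annotation, and as the strand setting of the counting is not given in the sources used here, reads of both cannot be told apart. For Sox4 and Sox9 the knockout order was the same, with knockout 1 lowest and knockout 3 highest.

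The log2 ratio of Sox4 to Sox9 was 2.55 ± 0.35 in controls and 1.48 ± 0.89 in knockouts (SD, n = 3), a difference of -1.07 with overlapping groups (exact two-sided permutation test, p = 0.20). The log2 ratio of Sox9 to Hnf4a was -8.07, -8.37 and -8.86 for controls 1 to 3, against -5.55, -3.43 and -1.39 for knockouts 1 to 3. It was higher in every knockout than in any control. The difference of the means was 4.97 on the log2 scale (exact two-sided permutation test, p = 0.10, the smallest possible, adjusted 0.133), or 4.32 with a pseudocount of 2 CPM in place of 0.5. It was 6.02 without knockout 1 and 3.94 without knockout 3. Hnf4a was above Sox9 in all 6 libraries.

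**Figure D2:**
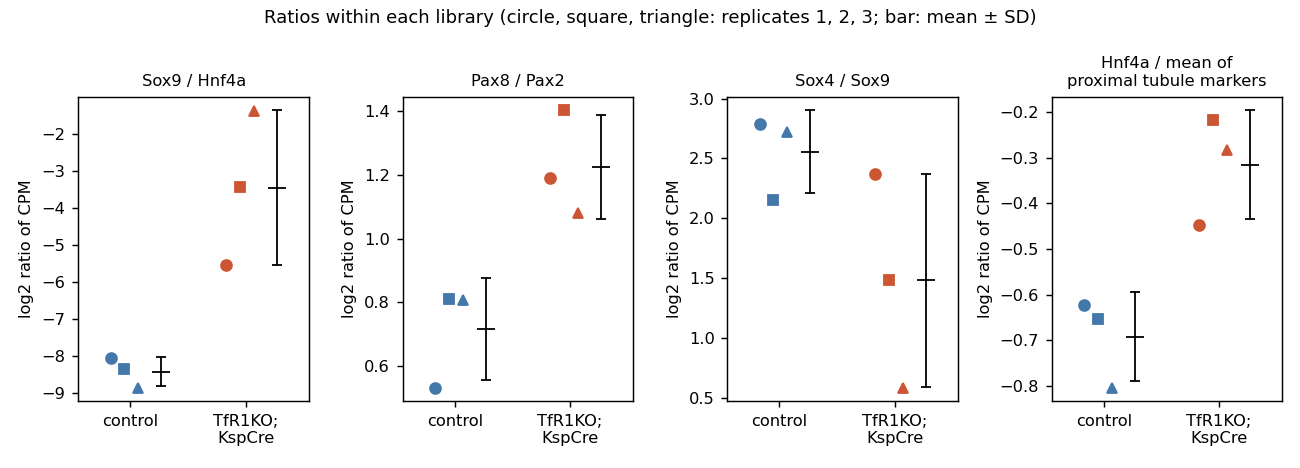
Log2 ratios of CPM within each library (vertical axes differ between panels and do not start at 0) for Sox9 over Hnf4a, Pax8 over Pax2, Sox4 over Sox9 and Hnf4a over the mean of 16 proximal tubule markers, with controls in blue, TfR1KO;KspCre in orange, circle, square and triangle for replicates 1, 2 and 3, and bars for the mean ± SD. The groups do not overlap except for Sox4 over Sox9, and Sox9 over Hnf4a runs from -8.86 in control 3 to -1.39 in knockout 3.

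Other Sox genes, 17 in number, were examined beside them, and 11 passed the filter. Of the 11, 3 rose and 0 fell in edgeR, where 10.6% of all genes tested were called higher. The median log2 fold change of the 11 was 0.64. Sox11, which belongs with Sox4 to the SOXC group, went from 0.750 CPM on average to 4.46 CPM (log2 fold change 2.56, SE 0.37, edgeR adjusted p = 0.0271). Sox8 and Sox10, which form the SOXE group with Sox9, had log2 fold changes of 2.52 and 2.16 (edgeR adjusted p = 0.0278 and 0.0409) at control means of 0.388 and 0.195 CPM. Sox8 had 4 to 9 counts and Sox10 had 2 to 7 counts in the controls, below the minimum of 10, so both passed the filter on low counts only through the knockouts and had to differ, and their values are a description. Of the 3 calls this leaves Sox11, with 13, 14 and 13 counts in controls 1 to 3. Sox8, Sox10 and Sox11 were at low levels in both groups. Without knockout 2, 1 Sox gene of the list was still called, and without any control or knockout 3 none was. With library size alone in place of TMM, 4 were called.

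Genes known from injured and repairing tubule cells were set beside Sox9 and Sox4. Of 16 such genes, all tested, 10 rose, 6 were not called and 0 fell in edgeR, where 10.6% of all genes tested were called higher and 6.64% lower. The median log2 fold change of the 16 was 1.70. Havcr1, the injury molecule KIM-1, lay at 0.249, 2.53 and 0.480 CPM in controls and at 95.0, 74.1 and 9.65 CPM in knockouts (log2 fold change 5.80, SE 1.12, edgeR adjusted p = 0.0305). With 5, 43 and 8 counts in controls 1 to 3, it passed the filter only through the knockouts, so its call is a description. Krt20, also among the 10, had 9 counts in control 3, below the minimum of 10. The knockout order of Havcr1 was the reverse of that of Sox9, with knockout 3 lowest. Lcn2, which encodes the secreted protein NGAL, lay at 142, 293 and 341 CPM in knockouts against 3.64 to 6.97 CPM in controls (log2 fold change 5.53, SE 0.45, edgeR adjusted p = 0.0271). The hyaluronan receptor gene Cd44 and the adhesion molecule gene Vcam1 had log2 fold changes of 4.40 and 3.62 (edgeR adjusted p = 0.0271 for both). Itgb6, an integrin subunit gene, was the 1 gene of the list with a negative value and was not called (log2 fold change -0.90, edgeR adjusted p = 0.0994).

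Markers of other cells that can hold SOX transcripts were examined as well, where 10.6% of all genes tested were called higher. Of 7 fibroblast and pericyte markers 3 rose (Col1a1, Col3a1 and Col1a2), and their summed level ran from 293 to 645 CPM in controls and from 979 to 3757 CPM in knockouts. Of 10 immune cell markers, all tested, 8 rose, and the sum of the 10 ran from 336 to 372 CPM in controls and from 1233 to 2712 CPM in knockouts. Both sums were highest in knockout 2. The sum of 6 urothelial markers ran from 31.2 to 73.9 CPM in controls and was 73.5, 849 and 20.8 CPM in knockouts 1 to 3, and none was called in edgeR, with adjusted p of 0.183 for Upk1b and 0.347 for Upk3b. Sox9 is also a defining factor of cartilage. Of 3 cartilage markers Col2a1 and Acan were near 0 in all libraries, and the sum stayed at or below 3.06 CPM. Of 5 cell cycle markers 4 rose, with sums of 5.07 to 21.1 CPM in controls and 45.1 to 70.6 CPM in knockouts. The part of the fibroblast, immune, urothelial, cartilage and cycling cells in the SOX values was not tested.

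**Figure D3:**
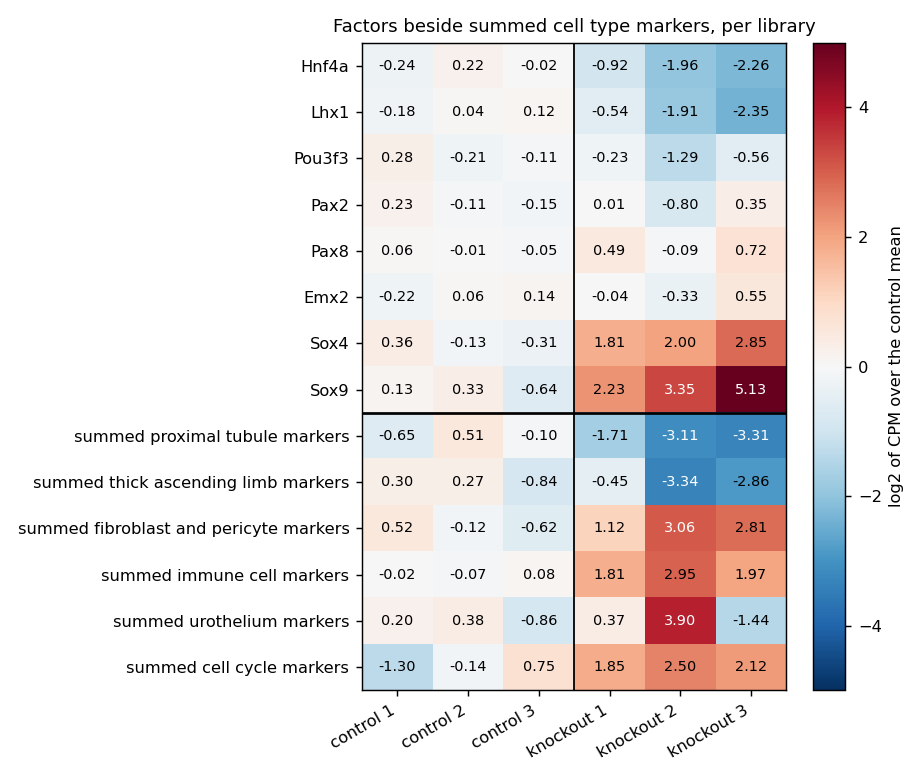
Heat map of the log2 of CPM over the control mean for the 8 factors (rows above the line) and for summed markers of 6 kinds (rows below) in each of the 6 libraries (columns), with red above and blue below the control mean and the value printed in each cell. Sox9 reaches 5.13 and Hnf4a -2.26 in knockout 3, and the summed urothelial markers are at 3.90 in knockout 2 and -1.44 in knockout 3.

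Lhx1 (ENSMUSG00000018698, mm9 chr11:84331479-84338923, minus strand), which patterns the early nephron, was lower in every knockout than in any control but did not pass the test. It lay at 14.2, 16.5 and 17.3 CPM in controls 1 to 3 and at 10.99, 4.27 and 3.14 CPM in knockouts 1 to 3, from 281 to 289 counts against 224, 85 and 41. Knockout 1 stood near the controls and the other knockouts well below. The log2 fold change was -1.38 (SE 0.46, 95% interval -2.47 to -0.28, edgeR adjusted p = 0.0767). DESeq2 called it at -1.41 (adjusted p = 0.0162), and edgeR did so without knockout 1 at -2.11 (adjusted p = 0.00344).

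Pou3f3 (ENSMUSG00000045515, mm9 chr1:42753991-42757052, plus strand), a single-exon gene, lay at 179, 127 and 137 CPM in controls 1 to 3 and at 126, 60.4 and 99.9 CPM in knockouts 1 to 3. The lowest control and the highest knockout were next to each other, so the groups separated by little. The log2 fold change was -0.63 (SE 0.29, 95% interval -1.31 to 0.05, edgeR adjusted p = 0.152). It passed in edgeR without knockout 1 alone, at -0.89 (adjusted p = 0.0451). Summed markers of the thick ascending limb, the part of the loop of Henle in which Pou3f3 is known to act, ran from 5358 to 11831 CPM in controls and from 945 to 7051 CPM in knockouts, with knockout 2 lowest as for Pou3f3, and 0 of 7 were called in edgeR. The median of these markers was -0.83, and 17.2% of all genes tested were called. Their part in the Pou3f3 values was not tested.

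Pax2, Pax8 and Emx2 had overlapping groups and none passed the test. Pax2 (ENSMUSG00000004231, mm9 chr19:44830539-44912758, plus strand) lay at 66.6, 52.4 and 50.8 CPM in controls and at 56.9, 32.5 and 72.0 CPM in knockouts, with the lowest and the highest value both among the knockouts. Its log2 fold change was -0.07 (95% interval -0.76 to 0.61, edgeR adjusted p = 0.868), and its sign turned under 2 other scalings. Emx2 (ENSMUSG00000043969, mm9 chr19:59533180-59539847, plus strand) lay at 40.6, 49.4 and 52.0 CPM in controls and at 46.2, 37.8 and 69.3 CPM in knockouts, again with both extremes among the knockouts (log2 fold change 0.11, 95% interval -0.46 to 0.68, edgeR adjusted p = 0.765). Changes within these intervals were not detectable with these libraries.

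Pax8 (ENSMUSG00000026976, mm9 chr2:24276071-24331119, minus strand) lay at 96.5, 92.3 and 89.3 CPM in controls, the tightest control group of the 8 members relative to its mean, and at 130.4, 86.8 and 153 CPM in knockouts. Knockouts 1 and 3 were above the controls and knockout 2 below them. The log2 fold change was 0.41 (SE 0.22, 95% interval -0.10 to 0.92, edgeR adjusted p = 0.1998). The transcript Gm13415 overlaps its exons on the opposite strand. Compared with its paralog within each library, the log2 ratio of Pax8 to Pax2 was 0.53, 0.81 and 0.81 for controls 1 to 3, against 1.19, 1.40 and 1.08 for knockouts 1 to 3. Every knockout was above every control, by 0.51 between the means (exact two-sided permutation test, p = 0.10, the smallest possible, adjusted 0.133). Of the 7 other Pax genes none passed the filter, and their summed level was at most 2.07 CPM in any library.

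**Figure D4:**
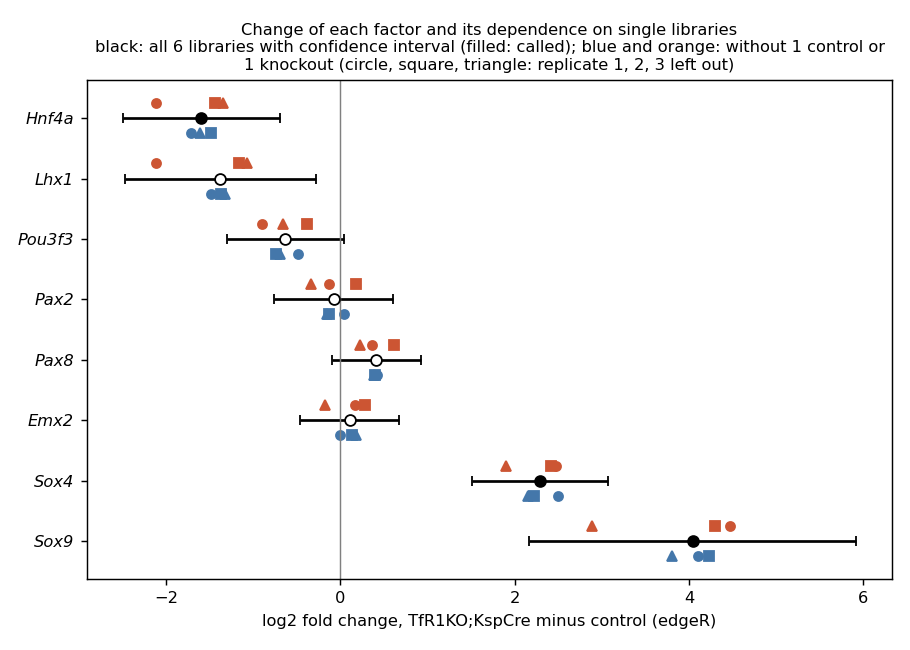
Log2 fold change (TfR1KO;KspCre minus control, edgeR) of each factor, with black points and bars for all 6 libraries and their 95% intervals, filled where called, and coloured points for the fits without 1 control (blue) or 1 knockout (orange), where circle, square and triangle mark the replicate left out. Hnf4a and Lhx1 reach -2.11 without knockout 1, Sox9 drops to 2.89 without knockout 3, and Pax2 and Emx2 lie on both sides of 0.

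Compared per kilobase of exon, the 8 members spanned a wide range in the controls. The control levels were 148 ± 23.3 CPM per kb for Hnf4a, 48.3 ± 8.99 for Pou3f3, 17.6 ± 2.23 for Emx2, 15.3 ± 0.595 for Pax8, 9.75 ± 1.49 for Pax2, 3.89 ± 0.399 for Lhx1, 2.55 ± 0.632 for Sox4 and 0.406 ± 0.130 for Sox9 (SD, n = 3). Of the neighbours in this order, Emx2 and Pax8 had overlapping ranges. In the knockouts the levels were 49.0 ± 25.6 CPM per kb for Hnf4a, 31.2 ± 10.8 for Pou3f3, 20.3 ± 5.53 for Pax8, 19.0 ± 6.07 for Emx2, 12.5 ± 5.14 for Sox4, 9.27 ± 3.43 for Pax2, 6.75 ± 6.54 for Sox9 and 1.49 ± 1.03 for Lhx1. Sox4 stood above Pax2 and Lhx1 stood last, but the ranges of all neighbours in the knockout order overlapped.

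Over 7 lists with 85 transcription factor genes, 60 were tested. Of the 60, 9 rose and 5 fell, against 10.6% and 6.64% of all genes tested, and the 5 were proximal factors. The 9 include Sox8, Sox10 and Barx2, which passed the filter only through the knockouts, so their calls are a description. Of 22 distal and collecting duct factors, 4 rose and 0 fell in edgeR, close to the 17.2% of all genes that were called, with a median log2 fold change of 0.15. The values were positive for 11 and negative for 11. The largest negative ones were Esrrb at -2.01 with overlapping groups (edgeR adjusted p = 0.132) and Elf5 at -1.57 without overlap (edgeR adjusted p = 0.0561). Elf3, an epithelial ETS factor, went from 42.7 to 138 CPM on average (log2 fold change 1.69, SE 0.35, edgeR adjusted p = 0.0323), while Gata3 and Tfap2a had log2 fold changes of 0.84 and 0.77 (edgeR adjusted p = 0.0295 and 0.0466). Barx2 was at most 0.300 CPM in the controls and 0.613 to 2.36 CPM in the knockouts (log2 fold change 3.25, SE 0.83, edgeR adjusted p = 0.0430). With 1, 1 and 5 counts in the controls it too passed the filter only through the knockouts, so that its call is a description and 3 calls rest on genes measured in both groups. Without knockout 1, 12 of the 22 distal factors passed, and without any one of the other libraries none did.

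Of 15 factors of nephron progenitors and kidney development, 12 were tested and, beside 10.6% of all genes tested called higher, 1 rose, with a median of 0.69. This was Etv4, an ETS factor downstream of receptor tyrosine kinase signalling in the ureteric bud, at 1.09, 0.882 and 2.22 CPM in controls and 4.32, 6.27 and 16.3 CPM in knockouts (log2 fold change 2.67, SE 0.62, edgeR adjusted p = 0.0369). Like Sox9, it was lowest in knockout 1 and highest in knockout 3 among the knockouts. Six2 and Cited1, defining genes of nephron progenitors, did not pass the filter on low counts. Eya1, with 8, 4 and 9 counts in controls, passed it only through the knockouts. Of 7 podocyte factors 1 rose, and the median was 0.81. Of 11 paralogs of Lhx1, Emx2 and Pou3f3, 2 were tested and 0 were called in edgeR. Emx1 lay at 52.5 CPM on average in controls and 22.9 CPM in knockouts without overlap (log2 fold change -1.19, edgeR adjusted p = 0.0761), and Lhx6 at 0.696 and 1.08 CPM (adjusted p = 0.356).

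**Figure D5:**
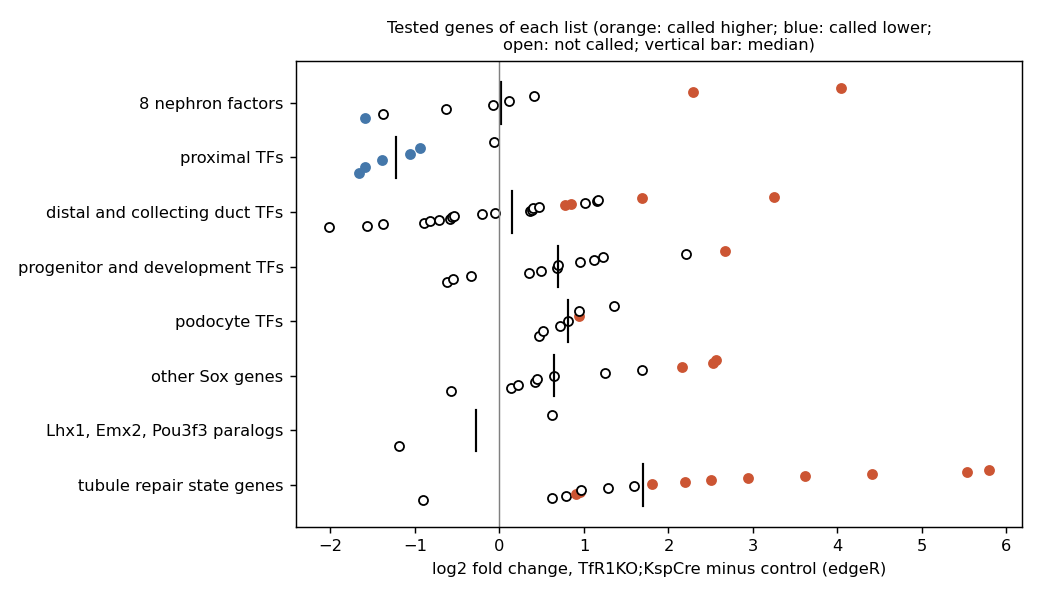
Log2 fold change (TfR1KO;KspCre minus control, edgeR) of every tested gene of the 8 factors and 7 further lists, with orange points called higher, blue points called lower, open points not called and a vertical bar at the median of each list. Blue points other than Hnf4a occur in the list of proximal factors, whose median is -1.22, and the repair state genes have a median of 1.70.

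The genes whose log2 CPM ran most like that of Hnf4a over the 6 libraries, among 11085 genes with a mean log2 CPM of at least 3, were Ass1, Adhfe1, Aldh4a1, Gatb and Aldh8a1 (Pearson r from 0.999 to 1.00). Ass1, a urea cycle enzyme, had means of 2292 CPM in controls and 429 CPM in knockouts. For Sox9 they were Smarce1, Ccm2, Daxx, Ptma and Ric8 (r from 0.993 to 0.998), with much smaller differences than Sox9 itself, such as 57.6 against 82.8 CPM on average for Smarce1. These correlations are descriptions over 6 libraries that fall into 2 groups and share normalisation. Over 0.9 were 2042 genes for Hnf4a, Lhx1 among them, and 983 for Sox9, Sox4 among them.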

How the data were processed

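Poly-A RNA of 6 whole mouse kidneys was sequenced as single-end reads of 100 bases. The authors deposited 1 table per group with whole-number read counts for each gene, not normalised. According to the methods and the processing notes, the authors used CASAVA 1.8.2, Trimmomatic, TopHat2 2.0.11 with mm9, uniquely mapped reads and HTSeq. The gene annotation and strand setting are not given in the sources used here. Unique mapping lowers counts of genes with near copies, and poly-A selection and read depth (11501053 to 21001341 counts per library) limit the precision of low genes such as Sox9.

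Groups and replicate numbers came from the sample titles. Replicates differed beyond sampling noise (chi-square per degree of freedom 52.9 to 125.5). Counts were tested with edgeR 4.0.16 in R 4.3.3 (filterByExpr with a minimum count of 10 and total of 15, TMM, quasi-likelihood test in its default version, all 6 libraries, no covariate, Benjamini-Hochberg over 15171 genes, threshold 0.05). The SE is the log2 fold change divided by the square root of F. Ratios within a library used log2 of CPM plus 0.5 and exact two-sided permutation tests over 20 divisions. Lists were described by counts and medians, with no set test. The scripts were first tested on simulated counts. Same-numbered libraries did not deviate together (correlations -0.13, 0.01 and 0.21), so the numbers do not pair them.

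The members and gene lists were chosen with earlier results of these data known. Beside the 8 members, Tfrc and Cdh16, genes were named by a rule: up to 4 called genes of a list with the largest log2 fold change, or the 2 most abundant tested ones where none was called, and the 5 genes most correlated with Hnf4a and with Sox9. Maf, Cebpa, Itgb6, Six2, Cited1, Col2a1, Acan, Krt20, Esrrb, Elf5, Sox12 and Eya1 were named after their values were seen. Some genes that the rule would name are not reported here. Positions are from GENCODE M1 (NCBIM37, mm9), which matched 20791 of 24422 gene names, and promoter windows of 250 bases from the RefSeq table (GRCm38.p6). Alternatives were DESeq2 1.42.0 size factors and Wald test, library size alone, upper quartile scaling, 2 other filters, the newer quasi-likelihood version, limma-voom (limma 3.58.1), each library left out, the replicate block, an Xist to Y-linked covariate, a threshold of 0.10, a pseudocount of 2 CPM and Lrp2 in place of the marker list. The sum of markers and the Hnf4a ratio without Kap were added after the data were seen.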

Additional observations from a re-analysis of the deposited data

How the results depend on the processing

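The number of genes called (2612) was 4861 with DESeq2's Wald test and 5034 at an adjusted p under 0.10, and ran from 0 to 5332 when 1 library was left out. The number of members called (3) ran from 0 to 5 in those fits, being 5 without knockout 1 and 0 without any other library. Whether the replicate numbers pair the libraries is not known. With the replicate number as a block 0 genes and 0 members were called in edgeR, with 5432 genes and 5 members at an unadjusted p under 0.05. Taking the Xist to Y-linked ratio as a covariate also gave 0 genes and 0 members, with 4235 genes and 4 members at an unadjusted p under 0.05. The cause was not tested, and the block, the covariate and each omission leave fewer residual degrees of freedom. Pax2 reversed to 0.19 with library size alone and to 0.0015 with upper quartile scaling, and ran from -0.34 to 0.19 without single libraries, being 0.04 without control 1. Emx2 ran from -0.17 to 0.28, being -0.01 without control 1. Library size alone moved the median of all genes from 0.02 to 0.29 and the share of calls that were higher to 81.8%. Hnf4a, Sox4, Sox9, Lhx1, Pou3f3 and Pax8 kept their sign under all 16 alternatives each. The 4 ratios kept their sign under every pseudocount, omission and block tried, where with 3 pairs p cannot go below 0.25. Fits that left out a library assume equal spread in both groups.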

Other observations

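Of 6 principal cell markers and 4 intercalated cell markers, 0 were called in edgeR, where 17.2% of all genes tested were called. The summed principal cell markers lay at 1048 to 1427 CPM in controls and at 1754, 979 and 496 CPM in knockouts 1 to 3, and the intercalated ones at 288 to 371 CPM in controls and 137 to 388 CPM in knockouts. Of 4 distal convoluted tubule markers 1 fell, Pvalb (log2 fold change -3.25, edgeR adjusted p = 0.0471), and the summed level of the 4 was 152 CPM in knockout 3 against 1940 to 3056 CPM in controls. Of 4 podocyte markers Synpo rose (log2 fold change 1.05, edgeR adjusted p = 0.0278), and of 4 endothelial markers 0 were called in edgeR, with an adjusted p of 0.0651 for Pecam1 and 0.630 for Emcn.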
